A study of Mus musculus with 6 samples.

Results

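The Hox genes of the mouse lie in 4 clusters, and the 39 protein-coding members studied here are those whose symbol is Hox followed by a cluster letter from a to d and a number, out of 21938 protein-coding genes on the assembled chromosomes. Hoxa holds 11 of them, Hoxb 10, Hoxc 9 and Hoxd 9. Open chromatin was mapped by ATAC-seq, which tags DNA that a transposase can reach, in adult neural stem cells cultured from the subependymal zone (SEZ), the stem cell layer that lines the lateral ventricles of the forebrain. All 6 libraries came from Srr2del/del mice aged 10 weeks, which lack Srr2, an enhancer of the stem cell gene Sox2, through CRISPR-Cas9 deletion. The mice descended from 2 founder strains on a C57BL/6J background, and which strain gave which library is not given in the sources used here. PROLIF libraries (replicates 1, 2 and 4) came from cultures grown for 2 days in vitro with bFGF on Matrigel, and DIFF libraries (replicates 1, 2 and 4) from cultures kept 1 further day in 2% fetal bovine serum without mitogens. For the proliferating cultures the series' design text gives 3 days instead of the 2 of the labels. The study profiled both states on the same cultures, so the 6 libraries stand for 3 Srr2del/del cultures. Wild-type cultures were not analysed here, so nothing below bears on the deletion, which both states share and which was not itself checked in the peaks. Each library started from 50000 cells.

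Hox proteins are homeodomain transcription factors that give cells their address along the head to tail axis. In each cluster the genes are ordered along the chromosome as they are used along the body, from the anterior genes at one end to the posterior genes at the other, and retinoic acid and Polycomb proteins are the classical activators and repressors of this order. The forebrain, from which these cells come, is the classical example of a territory in front of the Hox domain, where forebrain homeobox genes of other families are used instead. A gene is called open below in a library when the list holds a peak within 3 kb of one of its annotated start sites. A gene without such a peak gave a signal under the caller's threshold there, which does not show closed chromatin.

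In the whole series the peak lists held 59792 to 87728 peaks on the assembled chromosomes, and the background pileup, which stands for depth, ran from 2.85 to 6.01 reads. PROLIF replicate 1 and DIFF replicate 4 had the longest lists, PROLIF replicate 4 the shortest, and the background was highest in DIFF replicate 4. The labelled cell type was checked at marker promoters: 8 of 8 neural stem and progenitor markers and 4 of 4 forebrain markers were open in all 6 libraries, as were 64.4% of all protein-coding genes. Of the microglial list 2 of 6 were open in all libraries and 2 in none, with Ptprc and Cx3cr1 at 0 libraries. Of the endothelial list 1 of 5 was open in all and 3 in none, with Cdh5, Tek and Cldn5 at 0, while Pecam1 was open in 3 PROLIF and 0 DIFF libraries. Of the neuronal list 3 of 4 were open in all 6, and of the oligodendrocyte list 2 of 4, with Sox10 open in none. The part of other cell types in the Hox peaks was not tested, and in bulk cultures a weak peak can come from few cells or from weak opening in many.

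In all, 6 regions carried a peak in every library, and the sequences of 3 are given first because most of what follows turns on them. Positions are in GRCm38, and the sequences are read 5′ to 3′ from the plus strand of the RefSeq reference genome, 121 bases around the summit of the strongest peak. Capitals mark CpG dinucleotides, the sites of DNA methylation. They lie upstream of Hoxa4 (chr6:52191889-52192009), between Hoxa6 and Hoxa7 (chr6:52211669-52211789) and in an intron of Hoxb6 (chr11:96294671-96294791).
Hoxa4 upstream: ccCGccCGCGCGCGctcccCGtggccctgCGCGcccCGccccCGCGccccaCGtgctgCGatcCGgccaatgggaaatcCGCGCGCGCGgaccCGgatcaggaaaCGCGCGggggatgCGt
Hoxa6 to Hoxa7: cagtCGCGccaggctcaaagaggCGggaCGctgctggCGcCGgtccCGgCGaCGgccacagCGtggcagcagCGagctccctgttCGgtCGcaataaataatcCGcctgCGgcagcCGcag
Hoxb6 intron: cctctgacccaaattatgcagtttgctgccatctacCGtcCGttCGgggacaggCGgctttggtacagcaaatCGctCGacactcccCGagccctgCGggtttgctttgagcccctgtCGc

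The Hoxa4 stretch held 24 CpG sites and was 79.3% G and C, the stretch between Hoxa6 and Hoxa7 held 16 and was 69.4%, and the Hoxb6 stretch held 9 and was 59.5%. Another 2 constant regions lay at the start of Hoxa5 and at the far start of Hoxa7. Their summits are in untranslated exons, and they are given by position only.

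Few Hox genes were open throughout. A promoter peak was present in all 6 libraries for 7 of 39 genes (17.9%), against 64.4% of all protein-coding genes, and 16 of 39 (41.0%) had none in any library, against 25.4% of all genes. The other 16 were open in 1 to 5 libraries. The constant genes included Hoxa3, Hoxa4, Hoxa5, Hoxa6, Hoxa7 and Hoxb6, and 6 of the 7 belonged to Hoxa. The 16 genes with no peak were Hoxa2, Hoxa9, Hoxa11, Hoxb1, Hoxb2, Hoxb3, Hoxb4, Hoxb13, Hoxc4, Hoxc9, Hoxc11, Hoxc12, Hoxc13, Hoxd1, Hoxd10 and Hoxd11. No Hoxc or Hoxd gene was open in all 6 libraries.

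**Figure D1:**
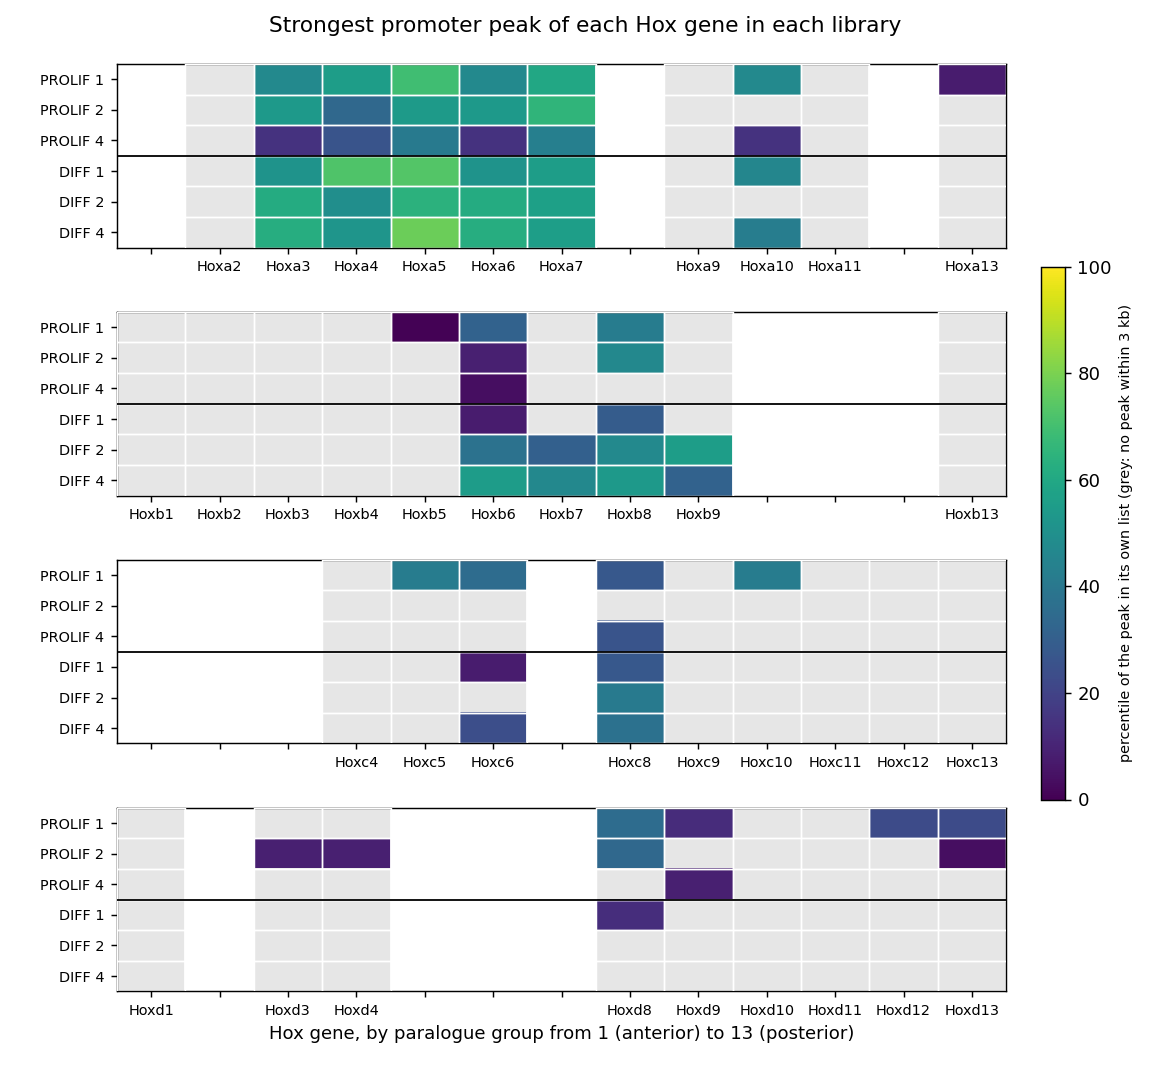
Strongest promoter peak of each Hox gene (columns, by paralogue group) in each of the 6 libraries (rows, PROLIF above the line and DIFF below), coloured by its percentile among all peaks of the same library; grey cells have no peak within 3 kb, and white columns have no gene or a gene not reported here. The block from Hoxa3 to Hoxa7 is coloured in all rows, Hoxa2 is grey in all, and the Hoxc and Hoxd panels are mostly grey.

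Position in the cluster did not order the genes in the same way in each cluster. Of the 8 anterior genes (paralogue groups 1 to 3), 2 were open in all libraries and 5 in none. Of the 15 central genes (groups 4 to 8), 5 were open in all and 2 in none, and of the 16 posterior genes (groups 9 to 13), 0 were open in all and 9 in none. All 4 central genes of Hoxa were constant, while the 3 anterior genes of Hoxb had no peak in any library and 1 of its 5 central genes was constant. In Hoxc, 4 of 5 posterior genes had none. In Hoxd, 3 of 5 posterior genes were open in at least 1 library, all in PROLIF libraries. Paralogues that arose from the same ancestral gene therefore differed: Hoxa4 was open in 6 libraries, Hoxd4 in 1 and Hoxb4 and Hoxc4 in 0, and Hoxa5 in 6 but Hoxb5 and Hoxc5 in 1 each. Group 8 was open more evenly, with Hoxb8 and Hoxc8 open in 5 libraries each and Hoxd8 in 3. Group 11, whose members pattern the limb and kidney, had no open gene in any cluster.

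How near a peak must lie, and to which start, decided part of these counts. Hoxa7, Hoxa10, Hoxc5, Hoxc6 and Hoxd4 owed peaks to alternative start sites, and with principal start sites alone Hoxa7 kept a peak in 2 libraries and the other 4 in 0. A single region between Hoxa6 and Hoxa7 made both Hoxa3 and Hoxa6 constant, and Hoxa6 had none once each peak was given only to the gene with the nearest start. With principal start sites and 1 kb, an alternative chosen after the data were seen, 3 genes were constant, among them Hoxa4 and Hoxa5, and 26 had no peak. Under the same narrow rule 58.1% of all protein-coding genes were open in all 6 libraries and 33.8% in none. Hoxa3 and Hoxa7 then had a peak in 2 libraries each, and Hoxa6, Hoxb6, Hoxb8 and Hoxc8 in 0.

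The peaks that were called ranked low in their lists. The lowest percentile over the 6 libraries had a median of 25.9 for the 7 constant Hox genes, against 80.2 for the 14126 constant protein-coding genes. Over all 114 peaks in the 4 windows the median percentile was 33.7 and the median fold enrichment 4.41. The fold enrichment is the pileup at the summit over the local background of the same library, each with 1 added. By cluster the median percentile was 43.4 over 63 Hoxa peaks, 31.5 over 18 Hoxb peaks, 27.6 over 9 Hoxc peaks and 20.9 over 24 Hoxd peaks. Pileups at the strongest peak of a region were as low as 10 reads, so single values rest on few reads.

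Hoxa5, which acts in the cervical spine, lung and brainstem, had a broad region, from 52203332 to 52204730, with its summit 35 bp inside the gene in the untranslated first exon. Its fold enrichment was 8.60, 6.17 and 4.66 in PROLIF replicates 1, 2 and 4 and 6.59, 7.17 and 7.60 in DIFF replicates 1, 2 and 4, the order kept below. The highest and the lowest value were thus both from PROLIF, and DIFF fell between them. The percentiles spanned 41.0 to 77.6. In PROLIF replicate 2 and DIFF replicate 2 the region was split into 2 peaks.

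At Hoxa4 the region from 52191864 to 52192363 lay 196 bp upstream of the start, over the CpG-rich sequence given above. The fold enrichment was 6.80, 4.57 and 4.16 in PROLIF and 7.54, 6.06 and 4.71 in DIFF. The states overlapped, with DIFF replicate 1 the highest and PROLIF replicate 4 the lowest. Percentiles ran from 25.9 to 72.3.

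Hoxa7 was carried by a region from 52221476 to 52222058, 5 bp from its far start, with the principal start beyond 3 kb. The fold enrichment was 7.36, 7.86 and 5.20 in PROLIF and 5.29, 6.78 and 4.94 in DIFF, and the states overlapped. Of the 5 constant regions described, this one alone had a lower mean in DIFF on the quantile-normalised log2 scale used for the test below. Its percentiles kept to 43.4 to 65.6.

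The region that served Hoxa3 and Hoxa6, from 52211471 to 52211993, lay 1386 bp from the principal start of Hoxa3, and the peaks ended 2749 to 2941 bp from that of Hoxa6. The fold enrichment was 5.79, 6.34 and 3.64 in PROLIF and 4.67, 7.43 and 5.85 in DIFF. Again PROLIF replicate 4 was the lowest, with 13 reads at the summit, and the states overlapped.

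Hoxb6, on chromosome 11, was the only constant gene outside Hoxa and the weakest of the 7. The region from 96294459 to 96294919 lay 2255 bp downstream of the start, in an intron that the antisense RNA Hoxb5os overlaps. The fold enrichment was 4.53, 3.30 and 3.12 in PROLIF and 3.02, 5.05 and 4.99 in DIFF. The lowest value was from DIFF replicate 1 and the highest from DIFF replicate 2. Percentiles ran from 3.68 to 55.3, and at a q of 0.001 only 3 libraries kept the peak.

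**Figure D2:**
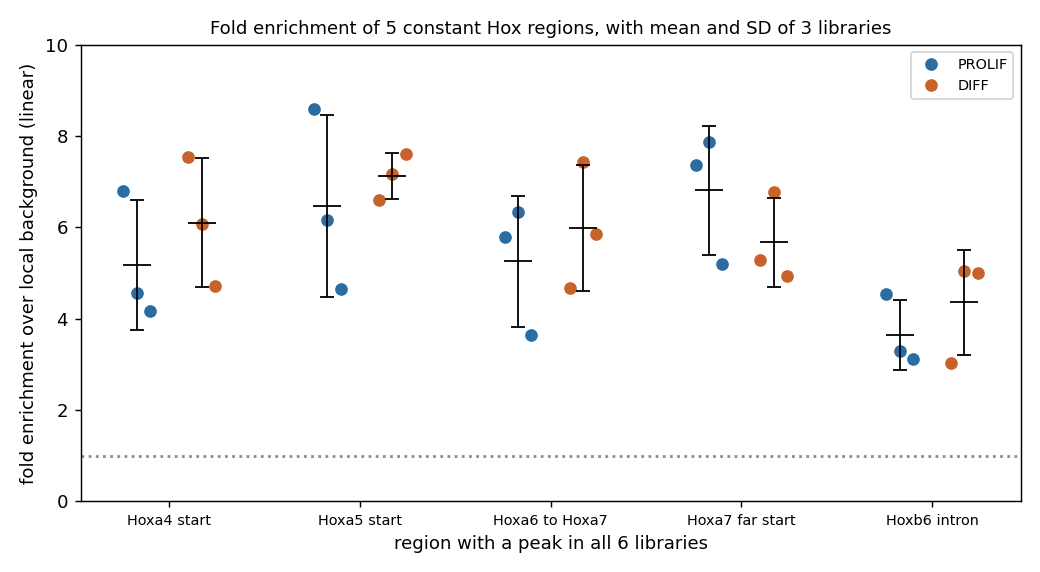
Fold enrichment over local background (linear axis) in 5 of the regions with a peak in every library; points are libraries (replicates 1, 2 and 4 from left to right), and black bars give the mean and SD of 3 libraries per state. Points of both states overlap in all 5, and the dotted line marks a fold of 1.

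No difference between the states passed the test in the 6 constant regions. Limma on quantile-normalised log2 fold enrichment, fitted over all 40102 regions with a peak in every library, gave 0 of 6 at a Benjamini-Hochberg adjusted p under 0.05 and 0 of 6 at an unadjusted p under 0.05. Over all regions 6.92% were called higher in DIFF and 8.9% higher in PROLIF. The differences, DIFF minus PROLIF on the log2 scale, were 0.34 ± 0.21 (SE, n = 3 per state, limma adjusted p = 0.301) at Hoxa4 and 0.26 ± 0.18 (adjusted p = 0.357) at Hoxa5. They were 0.29 ± 0.21 (limma adjusted p = 0.395) between Hoxa6 and Hoxa7, -0.18 ± 0.18 (adjusted p = 0.568) at Hoxa7 and 0.34 ± 0.20 (adjusted p = 0.275) at Hoxb6. The median was 0.28 over the 6 regions and 0.03 over all regions tested.

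Among the genes open in some libraries, several rested on short peaks away from a promoter. Hoxb8 and Hoxc8, central genes of the trunk, each had a peak in 5 libraries, and in both clusters the summit lay 2976 bp upstream of the principal start. The Hoxb8 region (chromosome 11, 96278745 to 96279044) is intergenic between Hoxb9 and Hoxb8 and had a fold enrichment of 5.29 and 5.58 in PROLIF replicates 1 and 2 and of 3.88, 5.81 and 4.85 in DIFF. The Hoxc8 region (chromosome 15, 102987492 to 102987702) lies in an intron of the long Hoxc5 transcript and had 4.28 and 4.16 in PROLIF replicates 1 and 4 and 3.87, 5.31 and 3.71 in DIFF. The missing library was PROLIF replicate 4 for Hoxb8 and PROLIF replicate 2 for Hoxc8, and both regions were present in all 3 DIFF libraries. The 121 bases around the summits (chr11:96278869-96278989 and chr15:102987571-102987691, plus strand) are shown because the 2 paralogous genes have them at the same distance. This was noticed after the values were seen, and the distance is that of the strongest peak of each region. Over the libraries the summits ran from 96278913 to 96278994 at Hoxb8 and from 102987631 to 102987646 at Hoxc8. Capitals mark an exact match to the CTCF core described next. Near matches were not searched, so the lack of capitals at Hoxc8 does not show that a CTCF site is absent.
Hoxb8 upstream: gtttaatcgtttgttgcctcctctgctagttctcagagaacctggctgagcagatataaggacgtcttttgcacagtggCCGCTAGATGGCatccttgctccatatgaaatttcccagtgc
Hoxc8 upstream: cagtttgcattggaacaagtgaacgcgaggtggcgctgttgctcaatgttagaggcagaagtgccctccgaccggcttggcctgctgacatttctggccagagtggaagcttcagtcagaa

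CTCF is an insulator protein that is known to divide Hox clusters into domains. Its core was searched as CCNNNAGNNGGC on either strand, up to 100 bp from each summit. A match was present in 5 of 37 Hox regions (13.5%) and in 12.7% of all 119719 regions, so the share was near that of the genome. The 5 sites are printed on the strand of the match with the core in capitals, 30 bases each, so that the letters behind each match can be compared. They lie at the Hoxa7 far start (chr6:52221800-52221829, minus strand), in an untranslated Hoxa10 exon (chr6:52240532-52240561, minus), between Hoxb9 and Hoxb8 (chr11:96278939-96278968, plus), upstream of Hoxd12 (chr2:74673169-74673198, minus) and in an intron of Hoxd3 (chr2:74715912-74715941, plus).
Hoxa7 far start: aagaaaattCCAGGAGATGGCagtgtggct
Hoxa10 exon: tcgcagccgCCACGAGATGGCgcactcccg
Hoxb9 to Hoxb8: gcacagtggCCGCTAGATGGCatccttgct
Hoxd12 upstream: gccaaacgcCCAGGAGATGGCgagcgtgct
Hoxd3 intron: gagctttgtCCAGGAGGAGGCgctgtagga

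These 5 regions had a peak in 6, 4, 5, 1 and 3 libraries in the order given. The PBX-HOX site, at which Hox proteins bind with their PBX partners, was searched as TGATNNAT and found in 2 of 37 regions (5.41%, against 6.13% of all regions). The first lay in the constant Hoxa4 region, 64 bp from the summit (chr6:52191998-52192027, plus strand), and the other in an intron of Hoxa3 with a peak in 3 libraries (chr6:52175558-52175587, minus strand). Both are printed with the match in capitals. The AP-1 site, TGANTCA, was found in 2 of 37 Hox regions, neither of them constant, and in 8.21% of all regions.
Hoxa4 PBX-HOX match: cgggggatgcgTGATGGATgctgctagcct
Hoxa3 intron PBX-HOX match: gtatgtctcagTGATTTATggctgcagact

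By CpG content the Hox promoters resembled those of open genes. The ratio of observed to expected CpG in the 1 kb around the principal start had a median of 0.693 over the 39 genes, against 0.720 over all protein-coding genes open in all 6 libraries and 0.162 over those open in none. It was 0.693 for the 7 constant Hox genes, 0.721 for the 16 open in some libraries and 0.584 for the 16 open in none. Of 7231 other genes between the lower and upper quartile of the Hox values, 0.508 to 0.799, 90.3% were open in all 6 libraries. Hoxa2, which patterns the hindbrain and the second branchial arch, had a ratio of 0.691 and no peak in any library. Hoxd11 had none at a ratio of 0.916, while Hoxb6 was constant at 0.372. The ratio describes the principal start, and the constant regions of Hoxa3, Hoxa6, Hoxa7 and Hoxb6 lay outside that 1 kb.

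**Figure D3:**
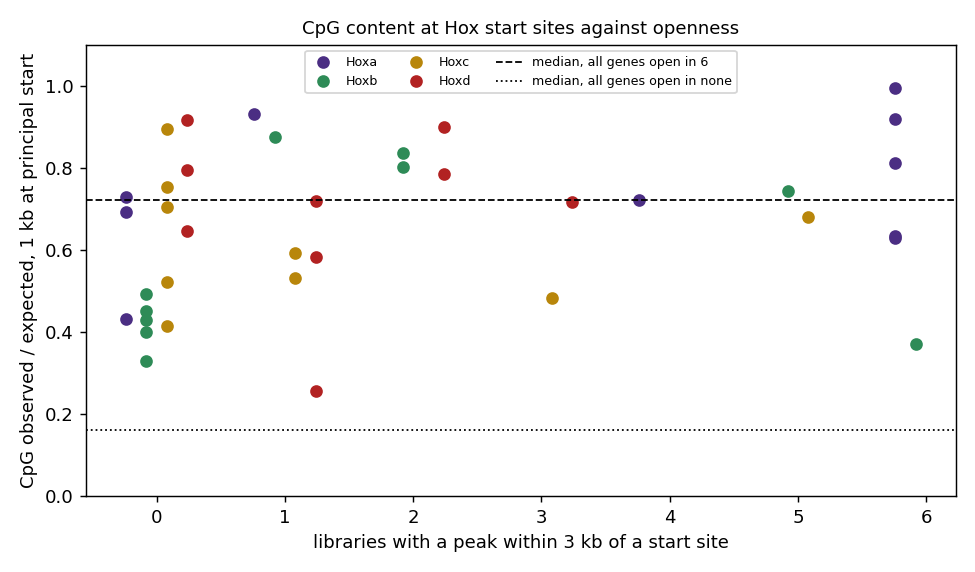
CpG observed to expected ratio in the 1 kb around the principal start (vertical axis) against the number of libraries with a promoter peak (horizontal axis, 0 to 6, clusters shifted sideways) for 38 of the Hox genes. Genes with 0 libraries spread from 0.329 to 0.916, far above the dotted median of 0.162 for all genes open in none.

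Peaks covered very different shares of the 4 clusters. Each cluster was taken from its first to its last gene with 20 kb on either side. Hoxa (chromosome 6, 52135590 to 52280880) was covered at 3.65, 2.70 and 2.28% in PROLIF replicates 1, 2 and 4 and at 2.94, 2.79 and 3.10% in DIFF. Hoxb (chromosome 11, 96174316 to 96388256) was covered at 0.160, 0.185 and 0.0809% in PROLIF and at 0.229, 0.298 and 0.395% in DIFF. Every library thus gave Hoxa the most cover. For Hoxc (chromosome 15, 102901103 to 103056852) the values were 0.457, 0 and 0.104% in PROLIF, where replicate 2 had no peak at all, and 0.329, 0.0815 and 0.259% in DIFF. Hoxd (chromosome 2, 74648310 to 74785142) had 1.47, 0.595 and 0.197% in PROLIF and 0.607, 0.357 and 0.443% in DIFF, with PROLIF replicate 1 far above the other libraries.

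In every library Hoxa was more covered, and Hoxb and Hoxc less covered, than the 500 kb on either side. Over the 6 libraries the means were 2.91 ± 0.46% (SD, n = 6) in Hoxa against 0.867 ± 0.13% in its flanks, 0.224 ± 0.110% in Hoxb against 1.12 ± 0.18%, and 0.205 ± 0.173% in Hoxc against 3.43 ± 0.35%. Each difference had the same sign in 6 of 6 libraries and, with both libraries of a culture averaged, in 3 of 3 cultures. A two-sided exact sign-flip permutation test over the 3 cultures gave p = 0.25 for each, the smallest that 3 cultures allow, so no call could be made (adjusted over the 4 clusters p = 0.333). Hoxd at 0.611 ± 0.446% was above its flanks, at 0.406 ± 0.10%, in 3 of 6 libraries (exact p = 0.5). Hoxa exceeded each of the other 3 clusters in 6 of 6 libraries, and both Hoxb and Hoxc were below Hoxd in 6 of 6 (exact p = 0.25 each over cultures, adjusted over 6 pairs p = 0.3). Hoxb was above Hoxc in 3 of 6 libraries (exact p = 0.75). These tests were chosen after the cover values had been seen.

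**Figure D4:**
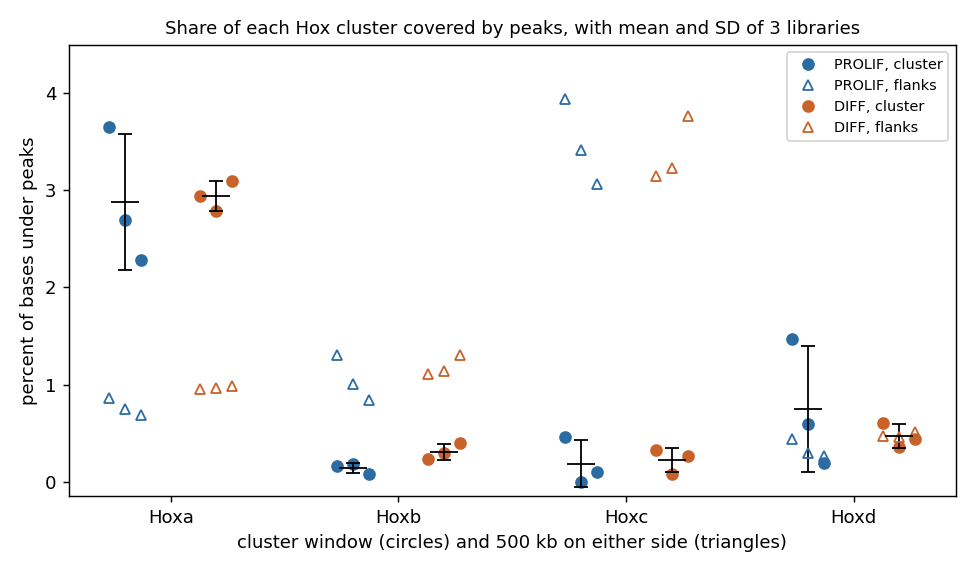
Percent of bases under peaks in each cluster window (circles) and in 500 kb on either side of it (open triangles) per library, PROLIF blue and DIFF orange, with the mean and SD of 3 libraries for the windows. Hoxa circles lie above their triangles, Hoxb and Hoxc circles lie below, and only in Hoxb do the circles of the 2 states not overlap.

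Between the states no difference in cover passed a test, and the libraries did not overlap in Hoxb alone. There the cover was 0.142 ± 0.054% (SD, n = 3) in PROLIF and 0.307 ± 0.083% in DIFF (two-sided exact permutation test, p = 0.1, the smallest p that 3 against 3 allows). In 12.2% of all windows of 150 kb with any peak, every DIFF library had more cover than every PROLIF library, and in 5.95% the reverse held. The Hoxb libraries overlapped with lists of equal length (exact p = 0.3), at a q of 0.001 (exact p = 0.3) and with a 50 kb flank (exact p = 0.2). In the other clusters the states overlapped: 2.88 ± 0.70% and 2.94 ± 0.15% in Hoxa (exact p = 0.9), 0.187 ± 0.240% and 0.223 ± 0.128% in Hoxc (exact p = 0.9), and 0.752 ± 0.649% and 0.469 ± 0.127% in Hoxd (exact p = 0.8). Without PROLIF replicate 1 the Hoxd difference, DIFF minus PROLIF, changed from -0.283 to 0.0732 percentage points, and the Hoxa difference rose from 0.0645 to 0.451. Of the 7 Hoxb regions 4 had peaks in DIFF libraries only and 1 in PROLIF replicate 1 only, where 23.5% of all regions had peaks in DIFF libraries only and 18.7% in PROLIF libraries only, whatever their number. Of the 4, 2 rested on 1 library. Among the 4 were a region in an intron of Hoxb9 (fold enrichment 6.82 and 3.42 in DIFF replicates 2 and 4) and one in an untranslated exon of Hoxb8 (4.55 and 4.28 in the same libraries). DIFF replicate 4 had the highest background pileup of all libraries, 6.01 reads. That of DIFF replicate 1, 3.63, was also above the range of the PROLIF libraries, 2.85 to 2.97. That of DIFF replicate 2, 2.96, was within it. The part of depth in the Hoxb values was not tested.

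The number of open Hox genes per library overlapped between the states, at 19, 12 and 10 in PROLIF replicates 1, 2 and 4 and 12, 11 and 13 in DIFF. The means were 13.7 ± 4.7 (SD, n = 3) and 12 ± 1 (two-sided exact permutation test, p = 0.9). PROLIF replicate 1 stood above the others, and 5 genes (Hoxa13, Hoxb5, Hoxc5, Hoxc10 and Hoxd12) were open in that library alone. Of all protein-coding genes 71.0, 68.6 and 67.4% were open in PROLIF and 69.3, 68.7 and 71.0% in DIFF. The share of all genes open in PROLIF replicate 1 alone is not given here. No Hox gene was open in all libraries of one state and in none of the other, as 0.228% of all genes were for PROLIF and 0.374% for DIFF. Hoxb7 and Hoxb9 were open in 2 DIFF libraries and no PROLIF library. The Hoxb7 peak is the one in the untranslated exon of Hoxb8 given above. Hoxb7 was open in 0 libraries once each peak was given only to the gene with the nearest start. The same held with a promoter window of 1 kb. Hoxd9 and Hoxd13, posterior genes used in the limb, were open in 2 PROLIF libraries and no DIFF library. With the libraries taken as pairs (replicate block), and a gene counted when it was open in one state alone in at least 2 of 3 pairs and never the reverse, these made 2 of 39 genes for each state, against 0.925% of all genes for PROLIF and 1.53% for DIFF.

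At most of these genes the values were low, with the highest at Hoxb9. Hoxb9 had a fold enrichment of 6.82 and 3.42 and Hoxb7 of 4.55 and 4.28 in DIFF replicates 2 and 4. Hoxd9 had 3.53 and 3.38 in PROLIF replicates 1 and 4, and Hoxd13 had 4.03 and 3.05 in PROLIF replicates 1 and 2, over the coding exon. The highest percentile at the latter pair was 22.9, and that at Hoxb9 and Hoxb7 was 55.7. Hoxa10, a posterior gene of the uterus and hindlimb, had 5.79 and 3.64 in PROLIF replicates 1 and 4 and 4.61 and 3.99 in DIFF replicates 1 and 4, at an alternative start. Hoxc6, a gene of the thoracic region, had 4.78 in PROLIF replicate 1 and 3.02 and 3.14 in DIFF replicates 1 and 4, and Hoxd8 had 4.78 and 4.57 in PROLIF replicates 1 and 2 and 3.24 in DIFF replicate 1. The genes open in PROLIF replicate 1 alone ran from 2.77 at Hoxb5 to 5.29 at Hoxc10 and Hoxc5, which share their region. Hoxd3 and Hoxd4 shared a peak of 3.30 in PROLIF replicate 2.

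**Figure D5:**
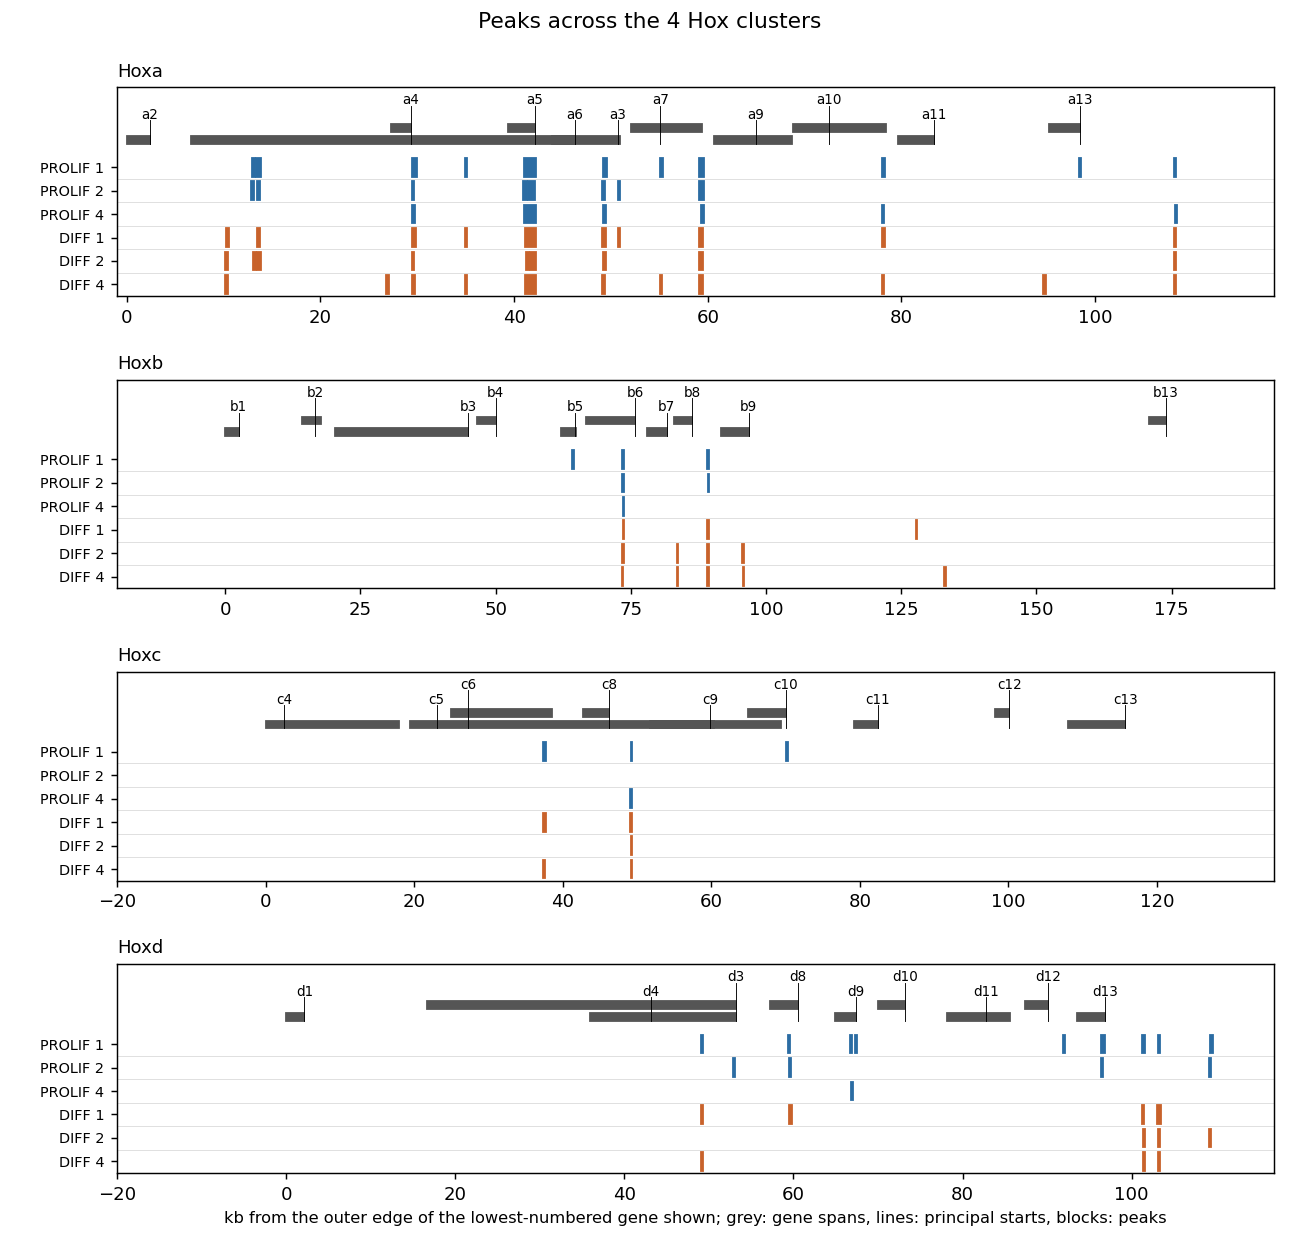
Peaks of the 6 libraries (blocks, PROLIF blue and DIFF orange, drawn at least 0.25 kb wide) along the 4 clusters (Hoxa from Hoxa2 on), in kb from the outer edge of the lowest-numbered gene shown, with gene spans in grey and lines at principal start sites above. Hoxa peaks line up in columns over all 6 libraries at Hoxa4 to Hoxa7, while Hoxb holds no peak from Hoxb1 to Hoxb4 and Hoxd holds none near Hoxd1.

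In the 4 windows the merged peaks made 37 regions, of which 6 (16.2%) had a peak in all 6 libraries, against 33.5% of all regions. By cluster 5 of the 6 were in Hoxa and 1 in Hoxb. Of the 37 regions 10 were in 1 library only, beside 35449 of all 119719 regions. Of the 10, 5 were in PROLIF replicate 1 and 3 in DIFF replicate 4. Of the regions in 5 libraries, singled out after their values were seen, the strongest lay 9757 bp upstream of Hoxa13, the most posterior gene of its cluster. It is intergenic (chromosome 6, 52270575 to 52270908), was missing in PROLIF replicate 2 and had a fold enrichment of 7.81 and 5.46 in PROLIF replicates 1 and 4 and of 4.10, 5.31 and 4.71 in DIFF.

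One region was specific to a state by presence. It was found in all 3 DIFF and no PROLIF library, on chromosome 6 from 52172626 to 52172925, in an untranslated exon of Hoxa3 7872 bp from the principal start of Hoxa2. The start of the antisense RNA Gm15050, at 52172881, lies inside the region, 178 bp from its summit. Over the genome 3.48% of regions were DIFF-only in this sense and 1.79% PROLIF-only, and 1 and 0 of 37 were so in the Hox windows. By pairs, under the looser rule used for genes, 5 and 2 of 37 were so, against 11.1% and 6.3% of all regions. Its fold enrichment was 3.68, 3.93 and 3.71 in DIFF replicates 1, 2 and 4, on 17, 15 and 25 reads, and its percentiles were 26.7, 19.6 and 37.5. It was therefore a weak peak in each library. Near Hoxd13 2 intergenic regions, at 6382 and 4558 bp from the start, had peaks in all 3 DIFF libraries and in PROLIF replicate 1.

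Noncoding genes of the clusters were read in the same way. The antisense RNA Hoxaas3, whose first start lies in Hoxa3, had a peak within 3 kb of one of its annotated starts in all 6 libraries. In PROLIF replicate 4 no peak lay within 3 kb of the first start, and another start counted there. Hottip, a long noncoding RNA at the Hoxa13 end, had a peak in 1 library, and Hotair, in Hoxc, in 0. Of 7 microRNA genes in the windows 6 had none: Mir10a, Mir10b, Mir196b, Mir196a-1, Mir196a-2 and Mir615. The share of all noncoding genes with a peak was not taken, so whether these counts are unusual cannot be said.

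Genes that act on or with Hox proteins were open far more widely than the Hox genes. All 9 cofactors of the Pbx, Meis and Pknox families, among them Meis1, Meis2 and Pknox1, which bind DNA together with Hox proteins, were open in all 6 libraries. So were all 17 Polycomb and Trithorax regulators, among them Ezh2, Bmi1 and Kmt2a, which keep Hox genes silent or active. Of the 9 retinoic acid genes 5 were open in all, including the receptors Rara, Rarb and Rarg, while the synthetic enzyme Aldh1a1 was open in 3 DIFF and 0 PROLIF libraries. The caudal and ParaHox genes were closer to the Hox genes, with 1 of 6 (Gsx1) open in all and 3 in none (Cdx1, Cdx4 and Gsx2). Of 14 forebrain homeobox factors 12 were open in all, and Otx2 in none. Of 11 neighbours of the clusters 7 were open in all, while Evx1 and Evx2, homeobox genes at the posterior ends of Hoxa and Hoxd, had peaks in 1 and 4 libraries. The share of all protein-coding genes open in all 6 libraries, 64.4%, is the value against which these lists stand.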

How the data were processed

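ATAC-seq peak lists of 6 Srr2del/del libraries were used, 3 PROLIF and 3 DIFF, grouped by the labels. The treatment label of every library names RNA, although the molecule is genomic DNA. The authors clipped and trimmed reads with Cutadapt and Trimmomatic, mapped them to GRCm38 with Bowtie2, flagged duplicates by Picard, and ran MACS2 on each library by itself for narrow peaks at a false discovery rate of 0.05; versions are not given in the sources used here. The deposited columns are a score (10 times −log10 q, cut to a whole number), a fold enrichment, which is a ratio to the local background, and −log10 p and q as the authors' caller gave them. Values were ranked within each list as percentiles of −log10 p. Read totals were not used here; summit pileup and background were solved from fold and p, and at least 99.99% of pileups came out whole within 0.02. They cover counting only.

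Start sites and exons came from GENCODE M21 (GRCm38), and principal starts from its APPRIS tags. Peaks overlapping by 1 bp or more were merged into regions. State differences were tested by exact permutation over libraries, or, for regions with a peak in all 6, by limma 3.58.1 with Benjamini-Hochberg adjustment over all regions, checked on simulated data. Named genes were the 39 members, the constant ones in full, except that the values of 1 member are not reported here although the counts include it, with the state-only regions and the 5 regions in all 6 libraries whose lowest percentile was highest, of which 4 are reported. The Hoxb6 region was described for its gene. Members, lists, tests and alternatives were chosen with earlier results of these data known, and the tests of cover against flanks and between clusters after the cover values were seen. The study states that both states were profiled on the same cultures, 3 per genotype, and libraries that carry 1 number were therefore paired. Their deviations from the state means correlated at 0.0733, 0.122 and 0.104 for replicates 1, 2 and 4, and every library correlated best with its own number. The labels do not say that a number marks a culture. The main tests between the states left the pairs out, and the pairs were used in the alternative with a replicate block. The sources used here do not say which animals gave the cultures.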

Additional observations from a re-analysis of the deposited data

How the results depend on the processing

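Counts of Hox genes and regions depended on the strength of the peaks kept and on the promoter rule. With the strongest 20000 peaks of each list, 0 genes and 0 regions were constant, 36 genes had no peak, 0 regions were DIFF-only, the DIFF minus PROLIF number of open genes was 1.33 and the cover difference was 0 in Hoxb, Hoxc and Hoxd. A promoter window of 1 kb left 4 constant genes, and principal start sites with 1 kb left 3 and 26 with none. A flank of 50 kb gave 10 constant regions, and cover of at least 50% of a region 2, with 0 DIFF-only. The gene number difference was 0.333 at a q of 0.001 and 0 with lists of equal length. The cover difference, in percentage points, turned to -0.0392 in Hoxa and 0.0443 in Hoxd with lists of equal length, and in Hoxc to -0.0362 at a q of 0.001, -0.0882 with lists of equal length and -0.0516 with 50 kb. In Hoxb it was 0.137 with lists of equal length (exact p = 0.3), 0.178 at a q of 0.001 (exact p = 0.3) and 0.136 with 50 kb (exact p = 0.2), where the libraries overlapped. None of these differences passed its exact permutation test, and the cause of the changes was not tested.

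Leaving out 1 library in turn gave 7 to 8 constant genes, 16 to 21 genes with none, 6 to 8 constant regions, and gene number differences of -3.5 (without PROLIF replicate 4) to 1 (without PROLIF replicate 1). DIFF-only genes numbered 0 to 2 (2 without DIFF replicate 1), PROLIF-only genes 0 to 1 (1 without PROLIF replicate 2 or 4), DIFF-only regions 1 to 3 (3 without PROLIF replicate 1 or DIFF replicate 1) and PROLIF-only regions 0 to 1 (1 without PROLIF replicate 2 or 4). Cover differences ranged from -0.233 to 0.451 in Hoxa, 0.122 to 0.205 in Hoxb, -0.0571 to 0.171 in Hoxc and -0.561 to 0.0732 in Hoxd, with the upper ends in Hoxa, Hoxc and Hoxd reached without PROLIF replicate 1. By limma 0 regions were called in each case, and the 5 limma differences given above kept their direction under the settings run. Over all regions limma called 2774 higher and 3569 lower in DIFF, and 3418 and 2572 on the normal score of the percentile, where the median over all regions was 0.11 against 0.03 and 1 of 6 Hox regions reached an unadjusted p under 0.05.

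With same-numbered libraries as pairs (replicate block), 2 genes were PROLIF-only and 2 DIFF-only, and 2 regions PROLIF-only and 5 DIFF-only, under a rule of at least 2 of 3 pairs that is looser than that of the unpaired counts. The gene number difference was unchanged at -1.67 (exact p = 0.75), the Hoxb cover difference had an exact p of 0.25, the smallest that 3 pairs allow, and limma with the block called 0 of 6 Hox regions, so the block changed no other call.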
